A study of Mus musculus with 8 samples.

Results

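Chemokines, interleukins, tumour necrosis factor and the receptors that read them were described in whole mouse kidney. The members were all genes whose symbol is Ccl, Cxcl, Ccr, Cxcr or Xcl followed by a number, together with 27 named genes: Cx3cl1 and its receptor, atypical chemokine receptors, TNF and 3 receptors of its family, IL-1 family genes, other interleukins and receptors, and adhesion molecules of the vessel wall. Of the 15948 genes in the deposited table, 65 were members. Ackr1 and Il1a were not analysed here. Messenger RNA was sequenced from 3 kidneys labelled Arhgef11Sglt2 DOCA and 5 kidneys labelled Sglt2Cre DOCA, the controls. Both groups carry the name of DOCA, in hypertension research the mineralocorticoid deoxycorticosterone acetate, so no untreated kidney stood beside them. Sglt2 takes up filtered glucose in the first stretch of the proximal tubule, where its promoter is used to drive Cre. The series title names a knockout of Arhgef11, a guanine nucleotide exchange factor for RhoA, limited to that tubule. The labels used here gave no strain, sex or age and did not state separate animals, so the p-values here reflect sample-to-sample spread, part of which may be technical.

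Chemokines are small secreted proteins that guide leukocytes along a gradient, and they fall into CC, CXC, CX3C and C classes by the spacing of their first cysteines. They act on G protein-coupled receptors, while atypical receptors bind chemokines and clear them without that signalling. In the kidney, tubule cells, endothelium and resident macrophages can all produce them. TNF and IL-1 signal through NF-κB, a transcription factor that switches on several chemokine and adhesion genes.

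Values are normalized counts, obtained by inverting the authors' log2 scale. They summed to between 43039300 and 46676200 per library. From the spacing of the low values, 1 read was worth 0.743 to 1.40 normalized counts, so a member at 10 normalized counts rests on few reads. Folds are ratios of group means of normalized counts, Arhgef11Sglt2 DOCA over control. Log2 differences are on the deposited scale, which compresses low genes. Arhgef11 itself had 2935, 3919 and 3905 normalized counts in Arhgef11Sglt2 DOCA kidneys and 3629, 3479, 3682, 3680.2 and 3928 in controls (limma adjusted p = 0.834). The whole-gene level therefore did not check the labels, and directions below refer to kidneys as labelled. Libraries stood apart within the Arhgef11Sglt2 DOCA group: the summed level of 13 macrophage and monocyte markers was 26063 in replicate 1, 15066 in replicate 2 and 8981 in replicate 3, against 13318 to 17773 in controls.

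Few members differed. In limma, a linear model with moderated variances fitted to all genes, 2 of the 65 members (3.08%) passed a Benjamini-Hochberg adjusted p of 0.05, against 2.22% of all 15948 genes. Both members were higher in Arhgef11Sglt2 DOCA kidneys: the TNF receptor Tnfrsf1a and the neutrophil chemokine Cxcl1. Of all genes, 0.627% were called higher and 1.59% lower, and the split of 100 higher and 254 lower became 149 and 178 when libraries were scaled to equal totals. No member was called lower by limma, while 5 were lower and 10 higher at an unadjusted p under 0.05, which 12.1% and 9.04% of all genes passed in those directions. The 3 Arhgef11Sglt2 DOCA libraries lay outside the range of the 5 controls for 9 members (13.8%), against 14.3% of all genes. In 5 of them the Arhgef11Sglt2 DOCA libraries were higher (6.20% of all genes) and in 4 lower (8.14% of all genes). The share is near the background. A log2 difference above 0 was found for 39 members (60%) and 47.9% of all genes. The median log2 difference was 0.027 over the members and -0.0070 over all genes.

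Both calls were lost when some single libraries were left out, while the differences stayed of similar size. Without replicate 3 of the Arhgef11Sglt2 DOCA group, or without any 1 of the 5 controls, neither member passed, with adjusted p between 0.0560 and 0.156. In those settings the log2 difference was 0.70 to 0.78 for Cxcl1 and 0.39 to 0.51 for Tnfrsf1a, and 24 to 284 of all genes were called, against 354 with every library. Without replicate 2 of that group, 5 members were called higher: Cxcl1, Tnfrsf1a, Icam1, Il4ra and Tnfrsf12a. These 5 are 7.69% of the members, against 2.78% of all genes called in either direction in that setting. Without replicate 1, Cxcl1, Tnfrsf1a and Sele were called higher, and Ccl19, Ccl27a and Cxcl9 were called lower. These 6 are 9.23% of the members, near the 8.36% of all genes called in that setting.

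**Figure D1:**
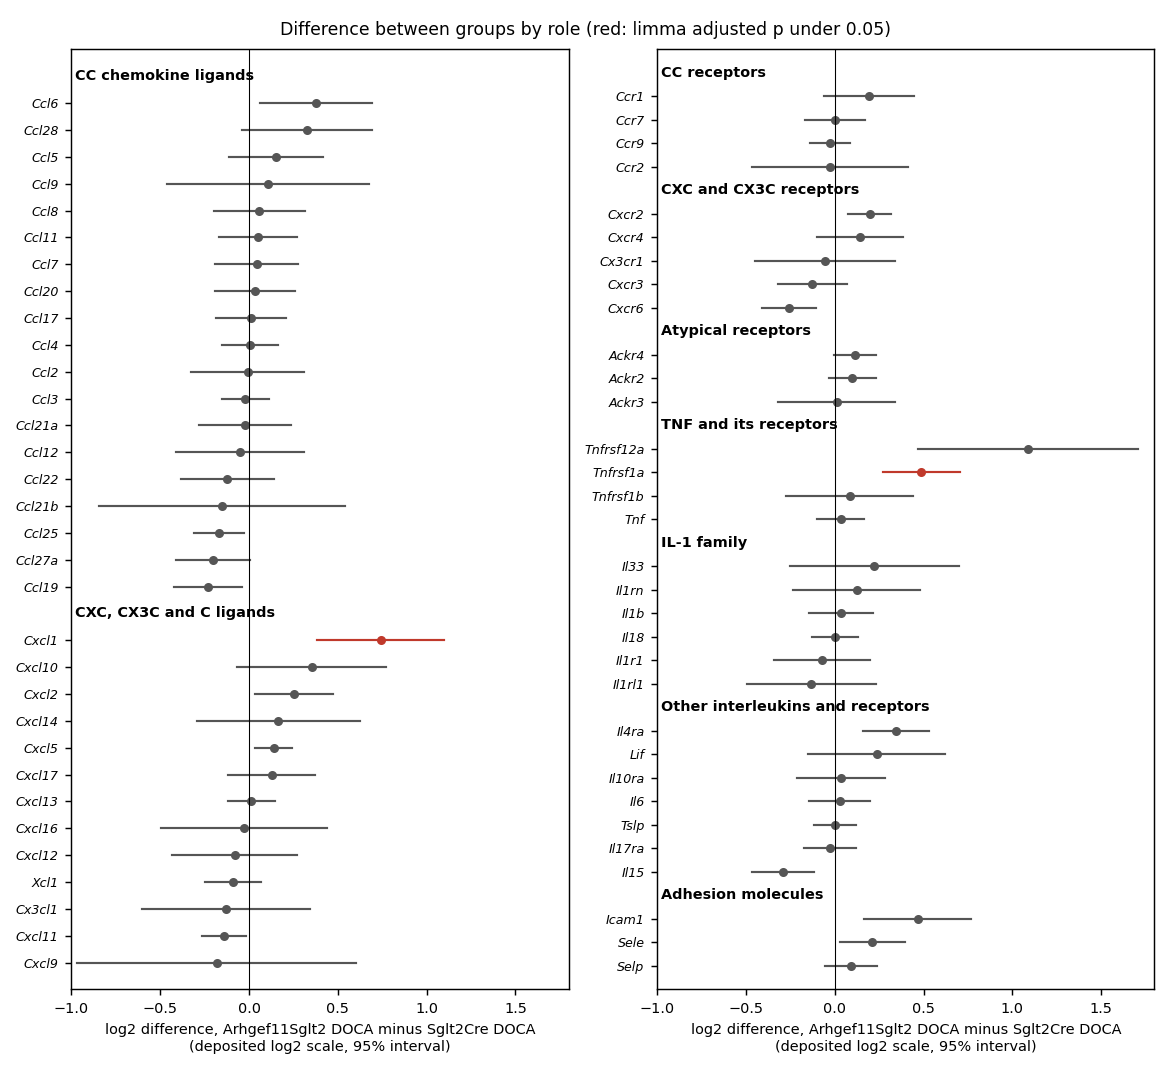
Log2 difference of each member but one CC receptor, Arhgef11Sglt2 DOCA minus Sglt2Cre DOCA, on the deposited log2 scale, with its 95% interval from limma and grouped by role. Cxcl1 and Tnfrsf1a, in red, are the members with an adjusted p under 0.05; Tnfrsf12a has the largest estimate on this scale, 1.09, with a wide interval.

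Cxcl1 (ENSMUSG00000029380) binds the receptor CXCR2 and attracts neutrophils. It had 706, 235 and 373 normalized counts in Arhgef11Sglt2 DOCA kidneys, against 106, 86.2, 158, 164 and 81.7 in controls. Each of the 3 Arhgef11Sglt2 DOCA libraries was above all 5 controls, and replicate 1 was far above the other 2. The fold was 3.67, with a log2 difference of 0.74 (SE 0.16, 95% interval 0.38 to 1.098, limma adjusted p = 0.0484). Permuting the group labels in all 56 ways gave an exact, unadjusted p of 0.0179 (both directions counted), which is the lowest value possible with 3 against 5. The fold was 2.55 without replicate 1. The numbers in the library names fall into a lower and a higher range, whose meaning the labels do not give. The fold was 4.03 within the lower range (2 against 3 libraries) and 3.03 within the higher (1 against 2). Replicate 3 is the only Arhgef11Sglt2 DOCA library in the higher range. For Il33, Il1rl1, Cx3cl1, Ackr3, Ccr2 and Cx3cr1, the fold was above 1 within the lower range and below 1 within the higher. The Il33 folds, for example, were 1.78 and 0.591. The other members read in this way kept their direction.

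In the reference gene table, Cxcl1 sits between Cxcl15 and Cxcl2 on chromosome 5, in a row that also holds Cxcl5, Ppbp, Pf4 and Cxcl3. Cxcl2, another CXCR2 ligand, was not covered by the rule for named members and was added after its values were seen. It had 126, 52.4 and 33.4 normalized counts in Arhgef11Sglt2 DOCA kidneys, against 20.0, 12.5, 34.3, 38.7 and 28.6 in controls. Replicate 3 of the Arhgef11Sglt2 DOCA group lay within the controls, and the difference did not pass (2.63-fold, log2 difference 0.25, SE 0.10, limma adjusted p = 0.180). Cxcl5, a further ligand of CXCR2, had 33.8, 32.3 and 33.5 normalized counts, against 11.7, 16.6, 15.9, 24.9 and 17.6 in controls. The groups did not overlap and the Arhgef11Sglt2 DOCA libraries were close to each other, but Cxcl5 did not pass over all genes (1.91-fold, log2 difference 0.14, SE 0.05, limma adjusted p = 0.135). Cxcl5 was low and its values rest on few reads, so that closeness is not a measure of precision.

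The 250 bases before the start site of Cxcl1, Cxcl2 and Tnfrsf1a are printed because they are the members called higher and the neighbour of one of them. They come from RefSeq on GRCm38.p6, which is not the build named for the deposited table, all on the plus strand. Capitals mark matches to GGGNNTTTC, an NF-κB-type motif, on either strand.
Cxcl1, chr5:90890995-90891244: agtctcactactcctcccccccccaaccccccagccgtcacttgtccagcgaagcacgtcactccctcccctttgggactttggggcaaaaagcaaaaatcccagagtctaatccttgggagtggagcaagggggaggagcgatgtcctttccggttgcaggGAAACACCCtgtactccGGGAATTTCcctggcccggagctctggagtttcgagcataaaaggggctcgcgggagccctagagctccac
Cxcl2, chr5:90903649-90903898: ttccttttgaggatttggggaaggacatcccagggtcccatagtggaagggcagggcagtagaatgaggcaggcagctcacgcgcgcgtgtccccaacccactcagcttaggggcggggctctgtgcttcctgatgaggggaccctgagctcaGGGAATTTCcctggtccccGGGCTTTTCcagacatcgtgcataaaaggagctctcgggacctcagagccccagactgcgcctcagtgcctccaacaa
Tnfrsf1a, chr6:125349473-125349722: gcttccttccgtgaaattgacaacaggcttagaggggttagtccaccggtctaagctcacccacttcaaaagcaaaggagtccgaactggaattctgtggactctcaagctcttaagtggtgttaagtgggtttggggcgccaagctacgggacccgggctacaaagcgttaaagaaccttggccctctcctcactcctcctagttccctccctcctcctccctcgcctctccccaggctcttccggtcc

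The Cxcl1 and Cxcl2 windows share the match GGGAATTTC, which begins 71 bases before the start site of Cxcl1 and 97 bases before that of Cxcl2. Each window holds another match, and the Tnfrsf1a window holds none of these letters. Of 27025 genes with such a window, 4.35% held a match, and of the 50 members with one, 11 did (22%): the ligands Cxcl1, Cxcl2, Cxcl9, Xcl1, Ccl9 and Ccl20, the receptors Cxcr2, Cxcr3 and Cxcr4, and Il1rn and Il6. Of these 11, Cxcl1 was called, Cxcl1 and Cxcr2 had groups that did not overlap, and the groups of the other 9 overlapped. Il6, for example, had 28.5, 13.2 and 31.7 normalized counts in Arhgef11Sglt2 DOCA kidneys, against 18.8, 8.02, 43.6, 29.0 and 12.9 in controls. TGAGTCA, the AP-1 motif, was in at least 1 window of 12% of the 50 members and of 5.16% of the 27025 genes. For TATAAA, the core of the TATA box, these shares were 30% and 14.3%. Both were searched on either strand. A match describes the letters of the window and is not a measured binding site.

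The receptor Cxcr2, carried mainly by neutrophils, had 35.0, 30.1 and 20.3 normalized counts in Arhgef11Sglt2 DOCA kidneys, against 13.7, 11.01, 12.6, 2.79 and 8.02 in controls. The groups did not overlap, although the control values rest on few reads and the difference did not pass (2.96-fold, log2 difference 0.20, SE 0.06, limma adjusted p = 0.0930). Neutrophil markers were read beside it. Of 10, 7 were measured and Ly6g, Camp and Ngp were not analysed here. Of the 7, 1, Retnlg, was called higher and none lower, against 0.627% of all genes called higher. Retnlg had 25.9, 38.5 and 37.2 normalized counts in Arhgef11Sglt2 DOCA kidneys, against 7.41, 17.7, 2.35, 2.81 and 2.70 in controls. Its adjusted p in limma was 0.0467, its control values rest on few reads, and it was not followed with a library left out. The summed level of the 6 measured markers other than Cxcr2 was 441 to 695 normalized counts in Arhgef11Sglt2 DOCA kidneys and 196 to 509.7 in controls. Their part in the levels of Cxcl1, Cxcl5 and Cxcr2 was not tested. In bulk tissue, a difference in the number of cells of a type and a difference in RNA per cell cannot be told apart.

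**Figure D2:**
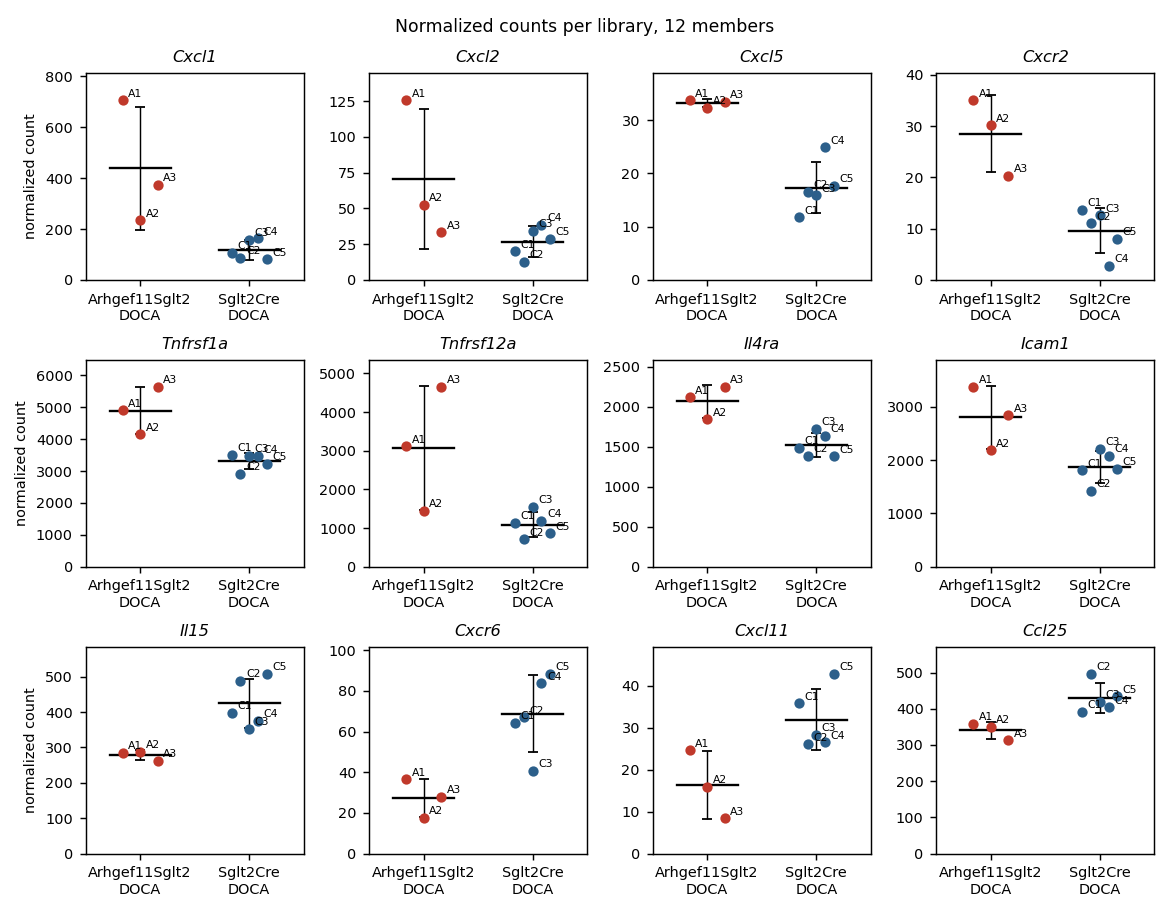
Normalized counts of 12 members in each library (points, numbered by replicate), with the group mean (wide bar) and SD (whiskers); Arhgef11Sglt2 DOCA (A, n = 3) is left of Sglt2Cre DOCA (C, n = 5). Cxcl1, Cxcl5, Cxcr2, Tnfrsf1a and Il4ra do not overlap and are higher in Arhgef11Sglt2 DOCA kidneys; Il15, Cxcr6, Cxcl11 and Ccl25 do not overlap and are lower.

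Among TNF and its receptors, the receptor with the death domain, Tnfrsf1a (TNFR1, ENSMUSG00000030341), had 4908, 4146 and 5631 normalized counts in Arhgef11Sglt2 DOCA kidneys, against 3516, 2923, 3472, 3465 and 3227 in controls. Every Arhgef11Sglt2 DOCA library was above every control, and controls were tightly grouped. Tnfrsf1a averaged 4895 ± 743 normalized counts in Arhgef11Sglt2 DOCA kidneys (SD, n = 3) and 3321 ± 249 in controls (SD, n = 5). It was 1.47-fold higher, with a log2 difference of 0.49 (SE 0.10, 95% interval 0.27 to 0.70, limma adjusted p = 0.0395; exact permutation p = 0.0179). The fold was 1.37 within the lower range of library numbers and 1.68 within the higher.

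Tnfrsf12a (Fn14), the receptor of the TNF-like ligand TWEAK and a gene of injured epithelium, had the largest log2 difference of any member on the deposited scale, although the folds of Cxcl1 and Cxcr2 were larger. It had 3113, 1447 and 4645 normalized counts in Arhgef11Sglt2 DOCA kidneys, against 1131, 707, 1551, 1182 and 866 in controls. Replicate 2 of the Arhgef11Sglt2 DOCA group lay below control replicate 3, and the difference did not pass (2.82-fold, log2 difference 1.09, SE 0.28, limma adjusted p = 0.0738). Without replicate 2 it passed, with an adjusted p of 0.0134. Tnf, the ligand, had 47.3, 28.2 and 23.2 normalized counts, against 25.1, 25.8, 27.3, 43.0 and 19.9 in controls, and the groups overlapped. Tnfrsf1b, the TNF receptor of leukocytes and endothelium, had 915, 620.2 and 468 normalized counts, against 418 to 836 in controls, so the groups overlapped there too. Of 10 injured tubule markers, 2 were called higher, Lcn2 and Krt20, and none lower, against 0.627% of all genes called higher. A positive log2 difference was found for 9 of the 10, with a median of 0.37. For 3 of them the groups did not overlap and were higher in Arhgef11Sglt2 DOCA kidneys, against 6.20% of all genes. The summed level of these markers overlapped, at 82441 to 149951 normalized counts in Arhgef11Sglt2 DOCA kidneys and 58032 to 103700 in controls. Their part in the receptor levels was not tested.

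Adhesion molecules let leukocytes stop on and cross the vessel wall. Icam1, the ligand of leukocyte integrins, had 3369, 2185 and 2843 normalized counts in Arhgef11Sglt2 DOCA kidneys, against 1807, 1429, 2211, 2085 and 1839 in controls. Replicate 2 of the Arhgef11Sglt2 DOCA group lay just below control replicate 3, and Icam1 did not pass (1.49-fold, log2 difference 0.47, SE 0.14, limma adjusted p = 0.0979). Sele, the endothelial E-selectin, had 26.8, 69.1 and 85.4 normalized counts, against 35.8, 15.0, 33.8, 30.7 and 17.4 in controls. Replicates 2 and 3 were above every control and replicate 1 was among them (log2 difference 0.21, SE 0.08, limma adjusted p = 0.179). Without replicate 1, Sele passed with an adjusted p of 0.0335. For Selp, P-selectin, replicate 3 of the Arhgef11Sglt2 DOCA group (104) was above the controls (42.5 to 71.0), while its replicates 1 and 2 (65.6 and 51.7) fell among them. Of 10 endothelial markers measured, 0 passed in limma, and their summed level was 22786 to 29712 normalized counts in Arhgef11Sglt2 DOCA kidneys and 16936 to 32196 in controls. Of 21 other leukocyte adhesion genes measured, none passed in limma in either direction, and the smallest adjusted p was 0.126, for the junction molecule F11r (1.17-fold).

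Of 19 CC ligands, none passed; their log2 differences ran from -0.23 to 0.38 with a median of 0.0043, and 10 were positive. Ccl6, a ligand made by myeloid cells in mice, had 788, 744 and 385 normalized counts in Arhgef11Sglt2 DOCA kidneys, against 405, 309, 522, 397 and 314 in controls. Replicates 1 and 2 of the Arhgef11Sglt2 DOCA group were above every control (1.64-fold, log2 difference 0.38, SE 0.14, limma adjusted p = 0.167). Ccl25, a ligand of the receptor CCR9, had 359, 349 and 313 normalized counts, against 391, 496, 419, 404 and 434 in controls. Ccl25 was the CC ligand whose groups did not overlap, at 0.793-fold the control mean (log2 difference -0.17, SE 0.06, limma adjusted p = 0.171).

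Ccl19, a ligand of CCR7 that draws dendritic cells and T cells, had 179, 97.7 and 84.9 normalized counts, against 201, 224, 168, 189.6 and 152 in controls. Replicate 1 of the Arhgef11Sglt2 DOCA group was among the controls for Ccl19 and the other libraries of the group were below them (log2 difference -0.23, SE 0.09, limma adjusted p = 0.169). Ccl19, Ccl21a, Ccl21b and Ccl27a have near-identical copies or pseudogenes in the mouse genome that can share reads, so their values are uncertain. Ccl21b was at 0 normalized counts in replicate 3 of the Arhgef11Sglt2 DOCA group and in control replicate 2, and between 101 and 209 in the other libraries. The monocyte chemokine Ccl2 had 265, 97.9 and 61.1 normalized counts, against 126, 81.8, 154, 187 and 111 in controls. The Arhgef11Sglt2 DOCA libraries for Ccl2 lay on both sides of the controls, and the group means, 141 ± 109 and 132 ± 40.4 (SD, n = 3 and 5), were close beside that spread.

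Several CC ligands spread more within the Arhgef11Sglt2 DOCA group than the controls did. Ccl9, a mouse myeloid chemokine, had 949.9, 374 and 110.1 normalized counts in Arhgef11Sglt2 DOCA kidneys, against 319, 302, 439, 309.9 and 324 in controls. Ccl12, a mouse ligand of CCR2, had 192, 34.3 and 18.6 normalized counts, against 43.4, 74.9, 89.3, 120.0 and 51.3 in controls. For both, replicate 1 of the Arhgef11Sglt2 DOCA group was the highest of the 8 libraries and replicate 3 the lowest. Ccl7, Ccl8, Ccl11 and Ccl20 were also highest in replicate 1, at 66.1 to 109 normalized counts, against 5.95 to 90.2 in controls and 8.45 to 16.9 in replicate 3. Ccl28, an epithelial ligand of CCR10, had 511, 264 and 248 normalized counts, against 119, 223, 375, 128 and 183 in controls, and the groups overlapped (log2 difference 0.32, SE 0.16, limma adjusted p = 0.287). Ccl5, a chemokine made by T cells, had 293, 126 and 129 normalized counts, against 93.8 to 197 in controls. Ccl3, Ccl4, Ccl17 and Ccl22 were low, with 6.76 to 84.2 normalized counts in Arhgef11Sglt2 DOCA kidneys and 7.85 to 71.3 in controls. The groups overlapped for each of these ligands.

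The other CXC ligands, Cx3cl1 and Xcl1 did not pass. Cxcl9, Cxcl10 and Cxcl11 are interferon-induced ligands of CXCR3, a receptor of activated T cells, and their values went apart. Cxcl11 had 24.6, 15.9 and 8.45 normalized counts in Arhgef11Sglt2 DOCA kidneys, against 35.8, 26.0, 28.3, 26.5 and 42.8 in controls, with no overlap (0.513-fold, log2 difference -0.14, SE 0.06, limma adjusted p = 0.183). Cxcl9 had 988, 88.9 and 39.8 normalized counts, against 288, 173, 320.0, 349 and 412 in controls. Replicate 1 was above and replicates 2 and 3 were below every control for Cxcl9. Cxcl10 had 1315, 769.5 and 738 normalized counts, against 730.0, 348, 695, 936 and 517 in controls, and the groups overlapped.

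Per kilobase of the longest annotated transcript, the ligands with the highest levels in controls were Cx3cl1 at 2271, Cxcl16 at 1304 and Cxcl12 at 1121 normalized counts per kilobase, and Cxcl1 stood at 63.7. Cx3cl1, the membrane-bound fractalkine, had 9258, 5777 and 5538 normalized counts in Arhgef11Sglt2 DOCA kidneys, against 7183, 4762, 8837, 9081 and 7780.3 in controls. The groups overlapped, with a log2 difference of -0.13 (SE 0.21, 95% interval -0.60 to 0.34, limma adjusted p = 0.769). Cxcl12, a stromal ligand of CXCR4, had 4399.8, 7095 and 6481 normalized counts, against 5483 to 8085 in controls. For Cxcl12, replicate 1 of the Arhgef11Sglt2 DOCA group was the lowest library of all 8, the reverse of its place for most chemokines. Cxcl14, an epithelial ligand, had 1626, 1048 and 1508 normalized counts, against 569.6 to 1602 in controls. Cxcl17, a mucosal ligand, had 137, 60.7 and 38.0 normalized counts, against 18.8 to 73.0 in controls. Cxcl13, which draws B cells, and Xcl1, which draws cross-presenting dendritic cells, ran from 0.845 to 20.7 normalized counts over the 8 libraries.

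Of 5 CC receptors, none passed. Ccr1, a receptor of monocytes and neutrophils, had 253, 113 and 111 normalized counts in Arhgef11Sglt2 DOCA kidneys, against 86.3, 102, 154, 108 and 61.5 in controls, and the groups overlapped (log2 difference 0.19, SE 0.11, limma adjusted p = 0.363). Ccr2, the receptor of inflammatory monocytes for CCL2, had 1836, 922 and 1011 normalized counts, against 835, 1541, 1006, 1625 and 1341 in controls. Replicate 1 was the highest of all 8 libraries for both receptors. Cx3cr1, the fractalkine receptor of resident macrophages, had 1202, 804 and 384 normalized counts, against 756 to 840.0 in controls. The Cx3cr1 group means were 797 ± 409 and 789 ± 31.6 (SD, n = 3 and 5), alike in size with a far wider spread in the Arhgef11Sglt2 DOCA group. Ccr7, the receptor for CCL19 and CCL21, ran from 9.30 to 41.0 normalized counts in Arhgef11Sglt2 DOCA kidneys and from 7.99 to 31.6 in controls, and Ccr9, the receptor for CCL25, from 6.13 to 19.7 in Arhgef11Sglt2 DOCA kidneys and from 10.54 to 16.8 in controls. Neither receptor separated the groups. For Ccr2, Cx3cr1 and the atypical receptor Ackr3, the sign of the log2 difference changed with the setting.

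Cxcr6, a receptor of T and natural killer cells for CXCL16, had 36.5, 17.8 and 27.9 normalized counts in Arhgef11Sglt2 DOCA kidneys, against 64.2, 66.9, 40.8, 83.8 and 88.3 in controls. The groups did not overlap, and the difference did not pass (0.398-fold, log2 difference -0.26, SE 0.07, limma adjusted p = 0.0790). Its ligand Cxcl16 had 5701, 3048 and 2269.6 normalized counts, against 3166 to 3967 in controls, with replicate 1 above and the other libraries of the Arhgef11Sglt2 DOCA group below every control. Cxcr3, the receptor for CXCL9, CXCL10 and CXCL11, had 38.7, 17.8 and 31.3 normalized counts, against 28.0 to 82.5 in controls, and Cxcr4, the receptor for CXCL12, had 279.9, 272 and 435, against 162 to 327 in controls. The groups overlapped for both receptors. T and natural killer cell markers stood beside Cxcr6: 0 of 16 passed in limma, none had a positive log2 difference, and the summed level was 381 to 620.5 normalized counts in Arhgef11Sglt2 DOCA kidneys and 521 to 1018 in controls. Their part in the level of Cxcr6 was not tested.

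Il15, a cytokine that sustains natural killer cells and memory T cells, had 285, 288 and 262 normalized counts in Arhgef11Sglt2 DOCA kidneys, against 398, 488, 352, 376 and 508 in controls. The groups did not overlap (0.655-fold, log2 difference -0.29, SE 0.08, 95% interval -0.46 to -0.12, limma adjusted p = 0.0809). Proximal tubule markers were lower in the same kidneys, with 5 of 12 called lower and none higher, against 1.59% of all genes called lower. Their summed level was 303395 to 439104 normalized counts, against 514967 to 585888 in controls. Thick ascending limb markers were also lower, with 1 of 6 called lower and none higher. The thick limb sum was 249309 to 317911 normalized counts, against 324981 to 372799 in controls. Distal tubule and collecting duct sums overlapped between groups, with none of 11 markers called. The part of these tubule segments in the level of Il15 was not tested. Il4ra, the receptor chain shared by IL-4 and IL-13, had 2119, 1843 and 2248 normalized counts in Arhgef11Sglt2 DOCA kidneys, against 1488, 1385, 1726, 1637 and 1384 in controls. The groups did not overlap for Il4ra, and it came close to the threshold (1.36-fold, log2 difference 0.35, SE 0.08, limma adjusted p = 0.0635).

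The other 5 genes of that group gave overlapping groups. Lif, an IL-6 family cytokine, had 529, 456 and 242 normalized counts in Arhgef11Sglt2 DOCA kidneys, against 252, 124, 435, 364 and 297 in controls. Il10ra ran from 345 to 540.5 normalized counts in Arhgef11Sglt2 DOCA kidneys and from 312 to 532 in controls. Il17ra was among the steadiest members, at 1084 to 1324 normalized counts in Arhgef11Sglt2 DOCA kidneys and 1179 to 1278 in controls. The epithelial alarm cytokine Tslp was between 2.68 and 15.7 normalized counts in all 8 libraries, a level at which only large differences could be seen.

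No IL-1 family member passed, and the lowest adjusted p among the 6 was 0.584. Il33, an alarmin released by damaged cells, had 1769, 1476 and 718 normalized counts in Arhgef11Sglt2 DOCA kidneys, against 1046, 592, 1089.9, 1251 and 1179.8 in controls (log2 difference 0.22, SE 0.21). Replicates 1 and 2 of the Arhgef11Sglt2 DOCA group were above every control and replicate 3 was among them. Its receptor Il1rl1 had 114, 40.5 and 28.5 normalized counts, against 54.3, 39.5, 61.4, 235 and 70.8 in controls (log2 difference -0.13, SE 0.16, limma adjusted p = 0.686). The value for Il1rl1 rested on single libraries: it was 0.660-fold the control mean with every library, 1.08-fold without control replicate 4 and 0.374-fold without replicate 1 of the Arhgef11Sglt2 DOCA group. Il1rn, the antagonist of IL-1, had 251, 69.3 and 42.2 normalized counts, against 30.3 to 109 in controls. Il1b itself had 132, 86.2 and 85.5 normalized counts, against 51.8 to 124 in controls. Replicate 1 was the highest library for Il33, Il1rn and Il1b. Il1r1, the signalling receptor for IL-1, had 953, 563 and 759.8 normalized counts, against 606 to 981 in controls, and the groups overlapped. Il18, a cytokine of tubule epithelium, ran from 53.0 to 73.9 normalized counts in Arhgef11Sglt2 DOCA kidneys and from 55.0 to 90.9 in controls.

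The atypical receptors are scavengers of chemokines. Ackr2, which clears CC ligands, had 49.4, 64.2 and 44.9 normalized counts in Arhgef11Sglt2 DOCA kidneys, against 31.5, 23.5, 49.0, 51.0 and 32.8 in controls (log2 difference 0.10, SE 0.06, limma adjusted p = 0.372). Ackr3, which clears CXCL12, had 2662, 2295 and 2644 normalized counts, against 2941, 1624, 2739.7, 2876 and 2578 in controls (log2 difference 0.01, SE 0.15, limma adjusted p = 0.977). Ackr4, which clears CCL19, CCL21 and CCL25, was low, at 14.2, 7.38 and 24.4 normalized counts, against 5.63, 9.38, 3.35, 7.11 and 6.15 in controls. The groups overlapped for all 3 atypical receptors.

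Across the members, replicate 1 of the Arhgef11Sglt2 DOCA group held the highest value far more often than over the whole table. It was the highest of the 8 libraries for 35 of 65 members (53.8%), against 13.96% of all genes. By role, it was highest for 12 of 19 CC ligands, 10 of 13 CXC, CX3C and C ligands, 3 of 5 CC receptors and 3 of 6 IL-1 family genes. The counts were 2 of 4 for TNF and its receptors, 2 of 5 for CXC and CX3C receptors and 2 of 7 for other interleukins and receptors. They were 1 of 3 for adhesion molecules and 0 of 3 for atypical receptors. Replicate 3 of the same group was the lowest library for 22 members (33.8%), against 26.0% of all genes, and control replicate 2 for 21 (32.3%), against 17.2%. The median member lay 0.16 above the control mean on the deposited log2 scale in replicate 1, 0.0055 above it in replicate 2 and at -0.072 from it in replicate 3, while the median over all genes lay within 0.02 of it in each. Summed markers of several cell types took the same order of the Arhgef11Sglt2 DOCA libraries, from replicate 1 down to replicate 3. They were the macrophage and monocyte markers given above, of which none of 15 was called, and the neutrophil and the T and natural killer cell markers. Fibroblast and pericyte markers also did so, at 63990.1, 41952 and 21658 normalized counts, against 41204 to 51817 in controls, with none of 9 called. Dendritic cell markers did so too, at 1516.45, 1184 and 890.4 normalized counts, against 1022 to 1957 in controls, with none of 8 called. B and plasma cell markers did not, at 1845, 6214 and 2630 normalized counts, against 6008 to 25277 in controls. Of 11 such markers, 2 were called lower and none higher, against 1.59% of all genes called lower. Endothelial, podocyte and tubule markers did not take that order either. The part of these cell types in the members' levels was not tested.

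**Figure D3:**
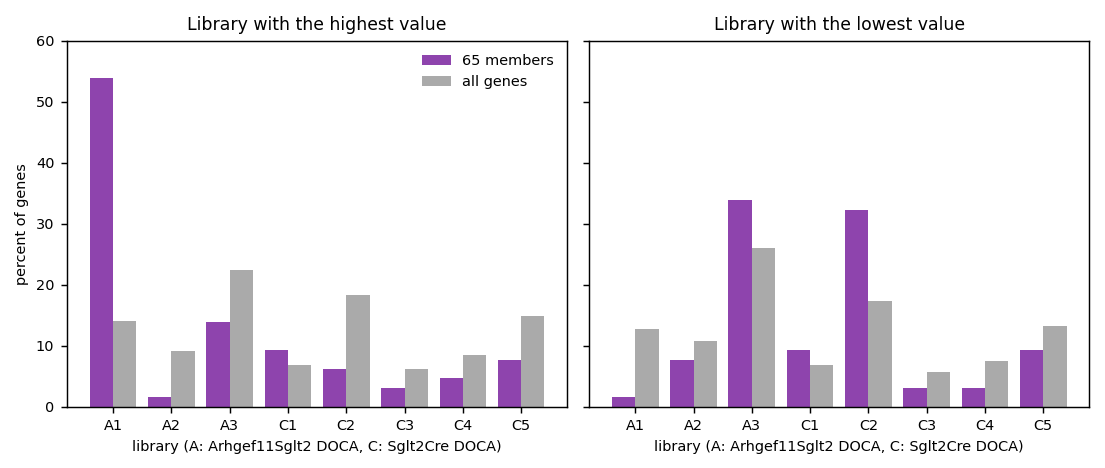
Percent of genes for which each library holds the highest (left) or the lowest (right) of the 8 values, for the 65 members and for all genes; A is Arhgef11Sglt2 DOCA, C is Sglt2Cre DOCA. Replicate 1 of the Arhgef11Sglt2 DOCA group is highest for 53.8% of members and 13.96% of all genes.

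**Figure D4:**
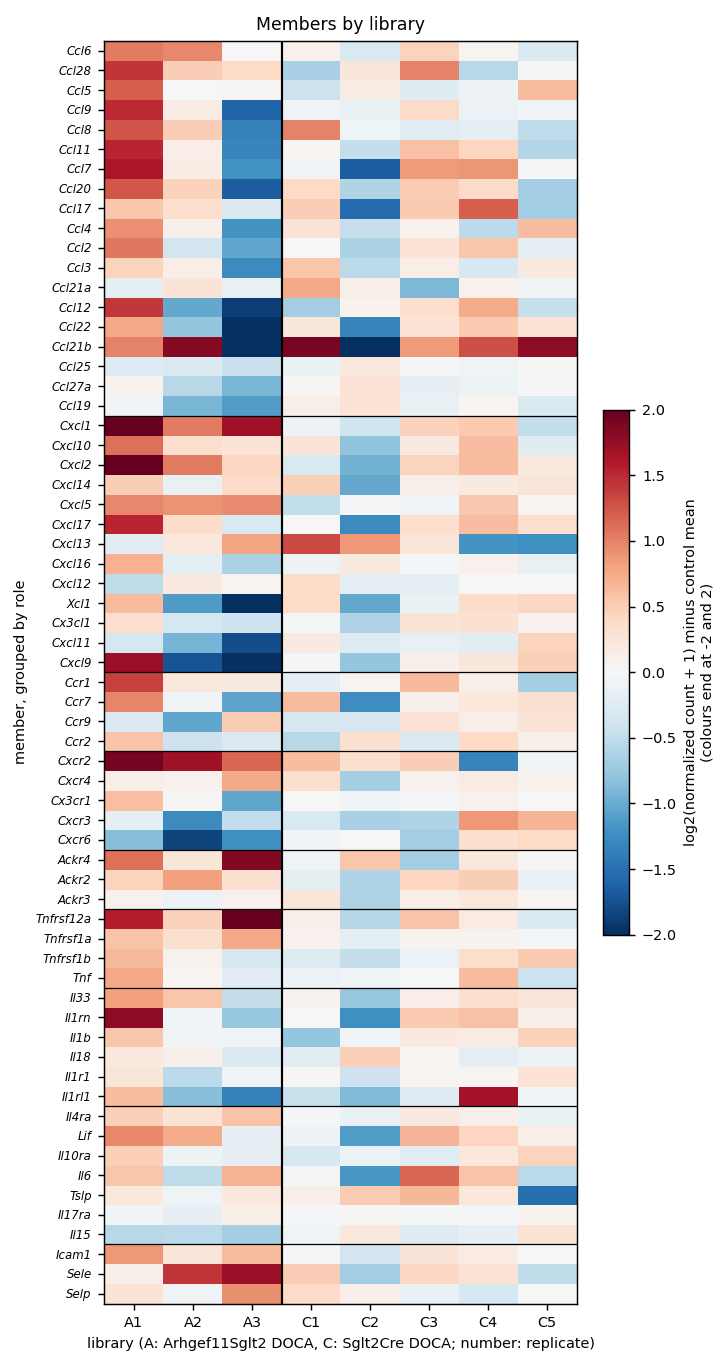
Each member but one CC receptor (down the page, grouped by role) in each library (across, A for Arhgef11Sglt2 DOCA and C for Sglt2Cre DOCA), as log2(normalized count + 1) minus the control mean, with colours ending at -2 and 2. The first column is red for most ligands, and the third is blue for many CC ligands and red for Cxcl1, Tnfrsf12a, Tnfrsf1a and Sele.

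Genes of the pathways around the members were read from chosen lists. Of all genes, for scale, 0.627% were called higher, 1.59% were called lower and 47.9% had a positive log2 difference. The median over all genes was -0.0070. Of 30 NF-κB subunits, inhibitors, adaptors and kinases, 1 was called higher and none lower, 28 had a positive log2 difference, and the median was 0.13. The called gene was Nfkbiz, an inducible nuclear co-regulator of NF-κB, with 1769, 1339 and 1971 normalized counts in Arhgef11Sglt2 DOCA kidneys, against 1006, 798, 1201, 1050.2 and 938 in controls. The Nfkbiz groups did not overlap (1.70-fold, log2 difference 0.55, SE 0.11, limma adjusted p = 0.0430). Birc3, an NF-κB target that restrains cell death, had an adjusted p of 0.0637 in limma and was 1.60-fold the control mean. The inhibitor Nfkbib (1.31-fold, adjusted p = 0.0724) and the subunit Relb (1.504-fold, adjusted p = 0.0971) did not overlap between groups and did not pass in limma. Of 26 genes of IL-1 and Toll-like receptor signalling and the inflammasome, 1 was called higher and none lower, with a median of 0.073. It was Irak3, an inhibitor of that signalling, with 180, 196 and 207 normalized counts, against 105, 121, 97.3, 127 and 133 in controls (log2 difference 0.26, SE 0.06, limma adjusted p = 0.0484). Cd14, the lipopolysaccharide co-receptor of myeloid cells, had 1771, 777 and 824 normalized counts, against 405, 482, 574, 431 and 384 in controls. Its groups did not overlap and it missed the threshold (2.47-fold, log2 difference 0.76, SE 0.17, limma adjusted p = 0.0559), as did the adaptor Tirap (1.43-fold, adjusted p = 0.0684) and the IL-18 receptor chain Il18rap (1.90-fold, adjusted p = 0.0769). Nfkbiz and Irak3 lost their calls without replicate 3 of the Arhgef11Sglt2 DOCA group (adjusted p 0.164 and 0.169) and without any 1 control, with the highest of those adjusted p at 0.0971 and 0.106; Irak3 also lost it without replicate 2 (0.0848).

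Of 36 other interleukins and cytokine receptor chains, none was called higher and 1 was called lower, Il11ra1, a receptor chain for IL-11. It had 1612, 1788 and 1577 normalized counts in Arhgef11Sglt2 DOCA kidneys, against 2574, 2844, 2514, 2469.7 and 2492 in controls. The Il11ra1 groups were far apart (0.643-fold, log2 difference -0.51, SE 0.07, limma adjusted p = 0.0147), and the call held without any 1 library (adjusted p 0.0124 to 0.0490). Il11ra1 has a near-identical copy in the mouse genome, so its value is uncertain. The interferon-gamma receptor chains Ifngr1 and Ifngr2 were 1.44-fold and 1.42-fold the control mean, with adjusted p of 0.0540 and 0.0853 in limma. Il17rb, a receptor for IL-25, was 1.70-fold the control mean (limma adjusted p = 0.0777). Of 27 other TNF superfamily genes, none passed, and the median was 0.012. The smallest adjusted p in limma were 0.0777 for the death ligand Tnfsf10 (0.775-fold) and 0.0874 for the lymphotoxin receptor Ltbr (1.298-fold). Tnfsf12, which encodes TWEAK, the ligand of Tnfrsf12a, was 1.21-fold the control mean (limma adjusted p = 0.165).

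**Figure D5:**
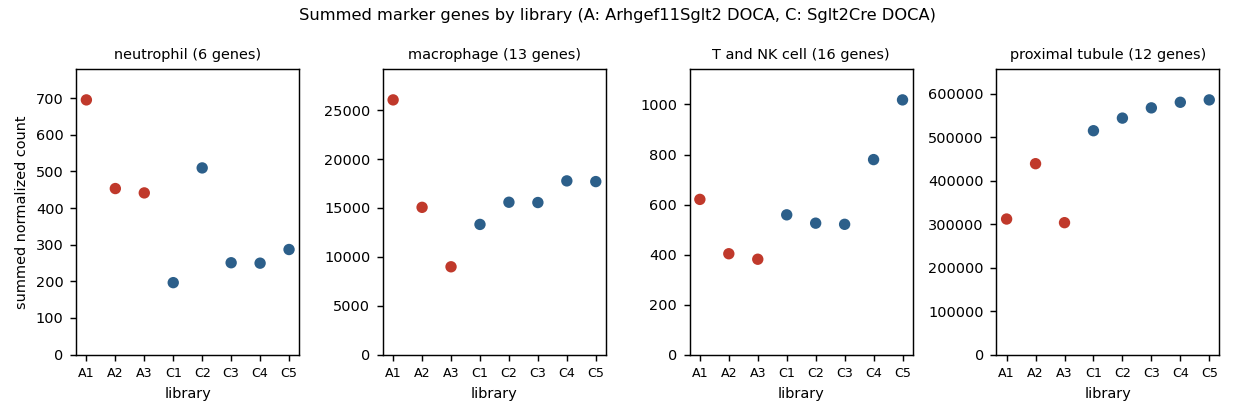
Summed normalized counts of marker genes that are not members, by library (A, Arhgef11Sglt2 DOCA; C, Sglt2Cre DOCA). The macrophage sum is 26063, 15066 and 8981 in the Arhgef11Sglt2 DOCA libraries and 13318 to 17773 in controls, and the proximal tubule sum is lower in each Arhgef11Sglt2 DOCA library than in any control.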

How the data were processed

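Messenger RNA of 8 kidneys was sequenced in stranded libraries, per the labels' protocols. Salmon 1.10.0, DESeq2 and GRCm39 are named in the submitters' processing notes; the sources used here give neither annotation nor gene filter. Deposited values are on a log2 scale, from a variance-stabilizing transformation by the authors, read from the values: all 8 columns share a floor of 8.13. With E the linear value and E0 the linear floor (279.7), normalized counts are (E - E0) squared over E. Of the values up to 5.5 times the worth of a read, 38.3% came within 0.02 of a whole multiple (4% by chance), so counts were not recovered and no count test was run. The spacing gives an estimated depth of 51128100 to 57965400 reads in Arhgef11Sglt2 DOCA libraries and 33039400 to 59498000 in controls. The share of low values near a whole multiple was lowest in control replicate 2, at 17.8%.

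limma 3.58.1 (R 4.3.3) fitted group on all 8 libraries and 15948 genes, with a mean-variance trend and Benjamini-Hochberg adjustment, called at 0.05. The procedure was tested on simulated data with independent normal noise. That simulation held no outlying library, so it cannot show how the procedure behaves with one. Symbols matched 99.7% of identifiers; transcript lengths came from GENCODE M21. Values in full are given for members past the threshold or without overlap between groups, and per role for the 2 with the smallest p and the most abundant. Members and lists were chosen with earlier results of these data known. Same-numbered libraries of the groups did not deviate together (correlations -0.176, -0.0880 and -0.00676), so numbers do not pair them. Alternatives covered filters on low values, the log scale, scaling, variance trend, sample weights, blocks and each library left out. The values of 1 CC receptor are not reported here, though it is included in the counts and medians.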

Additional observations from a re-analysis of the deposited data

Results flagged for a closer look

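Of 24 members with values given in full, the 5 control libraries held a library far from the others for 2, where chance alone would flag about 1 in 20 groups. Il1rl1, the IL-33 receptor, had 235.3 normalized counts in control replicate 4, beside 39.5 to 70.8 in the other controls. Ackr3, the scavenger of CXCL12, had 1624 normalized counts in control replicate 2, beside 2578 to 2941 in the other controls.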

How the results depend on the processing

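In 17 alternative settings, 24 of the 28 genes named with a test kept their sign. The number of members called higher, 2 in the reported analysis, stayed 2 under both filters on low values, on both log2(normalized count + pseudocount) scales and without the variance trend. It was 1, Tnfrsf1a, when libraries were scaled to equal totals, with sample weights, and with library number range as a block, where Cxcl1 had adjusted p of 0.0513, 0.0703 and 0.0580. Leaving out 1 library gave 0 to 5 members called higher and 0 to 3 called lower, and 24 to 1334 of all genes. With the replicate number as a block, 0 members and 0 of all genes passed (Tnfrsf1a and Cxcl1 adjusted p 0.198 and 0.202); the numbers do not pair the libraries. Sample weights called 874 of all genes, against 354. The member median of 0.027 was 0.10 as log2(normalized count + 1) and ran from -0.022 to 0.099 with a library left out. Signs changed for small differences: Il1rl1 was 0.023 with the replicate block, Ackr3 was -0.13 with sample weights and -0.12 to 0.068 with a library left out, Ccr2 was 0.0034 at equal totals, 0.099 with the replicate block and -0.25 to 0.11 with a library left out, and Cx3cr1 ran from -0.29 to 0.22. The cause of these changes was not tested. Irak3 also lost its call under a filter at 100, on both pseudocount scales and without the variance trend (adjusted p 0.0532 to 0.0574), and Nfkbiz with sample weights (0.0716). Depth limits members near 10 normalized counts, such as Tslp, Cxcl13, Xcl1 and Ackr4, where a difference would have to be large to be detectable.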
